A study of Mus musculus and Rattus norvegicus with 51 samples.

Results

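The genes described here are 35 genes of fatty acid oxidation, taken by name from a list that held PPAR-alpha, its commonly cited targets in liver and the enzymes of mitochondrial and peroxisomal beta-oxidation. All 35 symbols were present in each of the 3 count tables, which together held 28587 gene symbols. All 35 passed the filter on low counts in both tables of mouse liver, and 27 passed it in the rat cells.

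PPAR-alpha, encoded by Ppara, is a nuclear receptor that is abundant in hepatocytes. It is activated by fatty acids and their derivatives, binds DNA as a heterodimer with RXR at direct repeats of a hexamer spaced by a single base, and drives genes for fatty acid uptake, activation and oxidation. Long-chain fatty acids enter mitochondria as carnitine esters and are shortened by a repeating cycle of dehydrogenation, hydration, dehydrogenation and thiolysis, while very long chains are first shortened in peroxisomes. Electrons from the acyl-CoA dehydrogenases pass through the electron transfer flavoprotein to the respiratory chain.

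The study asked how redox forms of HMGB1, a nuclear protein that cells release on injury, affect fibrosis of the liver, both as it develops and as it resolves. RNA from whole liver of male mice was sequenced, as was RNA from HSC-T6, an immortalised rat line with its origin in stellate cells, which deposit scar collagen in liver. In the first liver table, the Hmgb1ΔHepΔMye genotype with Δ[O] HMGB1 was given CCl4 (4 livers) or MO (3 livers), the same genotype with WT HMGB1 was given CCl4 (4) or MO (3), and wild-type (WT) mice were given CCl4 (4) or MO (3), each for 4 weeks. CCl4, carbon tetrachloride, is a hepatotoxin that injures mainly the hepatocytes around the central veins. In the second liver table all mice were wild type. Resolution livers were taken 1 week after the injury had stopped and had been given [SO3] HMGB1, HMGB1 Ab or BSA, and fibrosis livers were taken after 4 weeks of CCl4 with [O] HMGB1, [H] HMGB1 or BSA (3 livers in each of these 6 groups). The HSC-T6 cells were treated for 6 h with [H], [SO3] or [O] HMGB1 or with BSA (3 samples each). The name of the counts deposited for the first liver table includes AAV8, without saying what it stands for or which mice received it. The labels spell out neither the bracketed forms, Δ[O], MO, Hep and Mye nor the way HMGB1 was supplied to the deletion mice. Nor do they say whether the WT mice had the same procedure. They do not say whether samples of a group came from separate animals or cultures, so each p-value refers to the variation among the samples at hand, part or all of which may be technical.

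Counts on genes came to 22598631 to 39323123 per library in the table of CCl4 and MO livers, 8355714 to 16327132 in the resolution and fibrosis livers and 11752661 to 16981255 in the cells. Levels are given in CPM, counts brought to a common library size with TMM factors, and differences are log2 fold changes with their standard error (SE). A call means an adjusted p under 0.05 (Benjamini-Hochberg, over every gene tested in the table) from the quasi-likelihood test of edgeR. Hmgb1 itself stood at 63.0, 81.2, 61.7 and 92.3 CPM in deletion livers with Δ[O] HMGB1 and CCl4, and at 215, 172 and 131 CPM in those with Δ[O] HMGB1 and MO. It stood at 50.5, 44.9, 65.4 and 74.1 CPM in deletion livers with WT HMGB1 and CCl4, and at 69.7, 63.9 and 74.7 CPM in those with WT HMGB1 and MO. In WT livers it was at 65.5, 57.2, 69.5 and 107 CPM with CCl4 and at 72.8, 74.5 and 77.3 CPM with MO. The deletion livers were thus not low in Hmgb1 reads, and reads from the supplied HMGB1 and from the animals' own gene cannot be told apart here.

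Promoter sequences were read for the members because PPAR-alpha acts through a known DNA element. RefSeq entries for GRCm38.p6 (250 bases before to 50 after the start) were found for 30 of the 35 members and were searched on both strands for the direct repeat of AGGTCA with 1 base of any kind between its copies. No member held the repeat exactly, against 0.0481% of 27025 genes. With up to 2 mismatches it was found in 4 of 30 members (13.3%), against 4.4% of all genes. These 4 were the genes of a carrier, a fatty acid binding protein, a lipid droplet protein and an electron carrier. The matches are shown because the changes of these genes with CCl4 are given below. They are written 5′ to 3′ along the strand of the repeat, with capitals at the letters that match the searched motif:
Fabp1: AGGcCAtAGGTCA
Slc25a20: AGGTgAaAGGTCg
Etfa: AGGgCAaAGGTaA
Plin2: AGGTCAggGGTCc
The match of Fabp1, the only one with 1 mismatch, reaches up to 67 bases before the start of transcription and is on the strand opposite to the gene. The 250 bases before the start of Fabp1, at chr6:71199629-71199878 of GRCm38.p6 on the plus strand, read as follows, with the match in capitals:
Fabp1 upstream: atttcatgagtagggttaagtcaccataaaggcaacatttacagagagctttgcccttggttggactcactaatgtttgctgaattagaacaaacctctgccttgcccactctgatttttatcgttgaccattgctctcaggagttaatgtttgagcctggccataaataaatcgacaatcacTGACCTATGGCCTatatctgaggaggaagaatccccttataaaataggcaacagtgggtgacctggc
A match is a description of these letters and says nothing of binding.

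CCl4 lowered nearly the whole set in WT livers. Of the 35 members 29 fell and 1, Bdh1, rose relative to MO, while of all 14129 genes tested 46.3% were called, 23.5% lower and 22.8% higher. The median log2 fold change of the members was -1.06, against -0.004 over all genes tested. The CPM ranges of the CCl4 and MO livers did not overlap for 29 members, 28 of them lower with CCl4, where 24.8% of all genes were separated in that direction. The 5 members without a call were Acadl, Acot2, Pdk4, Fgf21 and Plin2. Leaving out 1 library ended the call for Acadm (adjusted p up to 0.0809) and Crot (up to 0.102). In whole liver, fewer hepatocytes and less RNA per hepatocyte cannot be told apart.

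**Figure D1:**
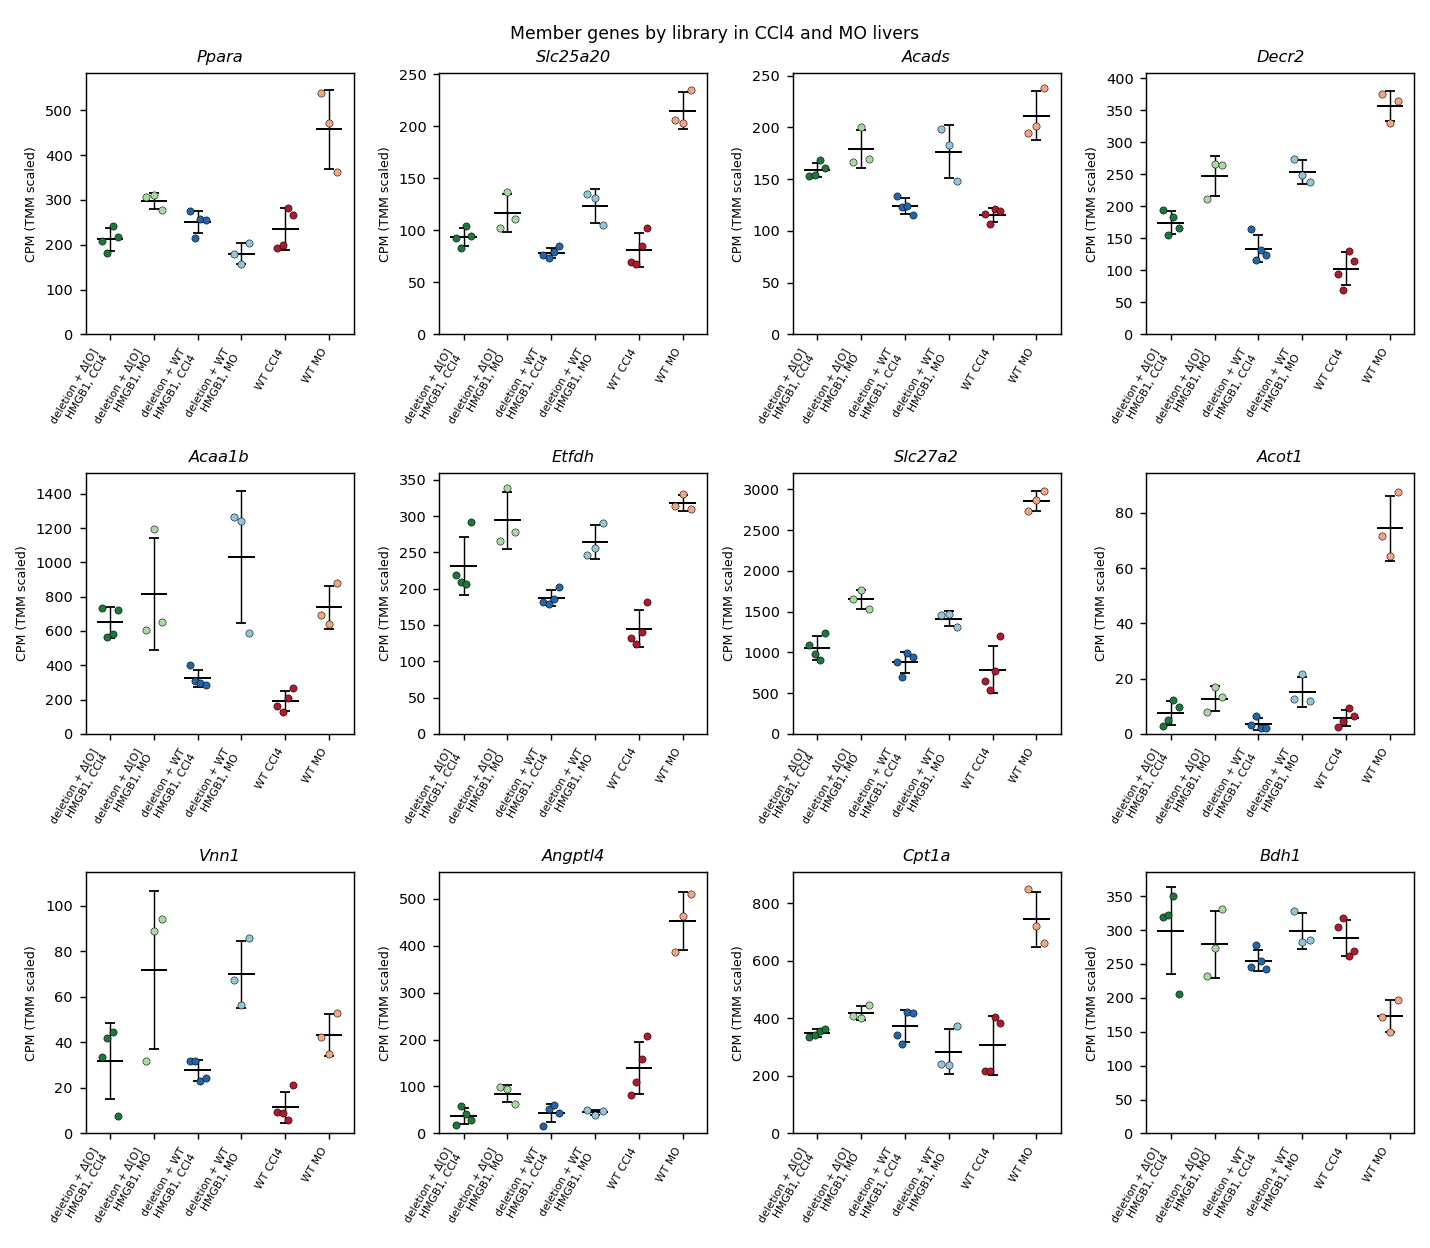
Level (CPM, scaled by TMM factors) of 12 members in each library of the CCl4 and MO livers, with dots for libraries, long bars for group means and error bars for the SD. In WT livers the CCl4 dots lie below the MO dots in 11 panels and above them for Bdh1, and the MO dots of both deletion groups lie below those of WT for Ppara, Cpt1a, Slc25a20, Slc27a2, Acot1 and Angptl4.

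Ppara, the receptor, was at 192, 199, 283 and 266 CPM in WT livers with CCl4, against 538, 471 and 362 CPM with MO. The groups did not overlap, and the log2 fold change was -0.96 (SE 0.158, edgeR adjusted p 6.71e-05). All 5 members of the carnitine shuttle and acylcarnitine group fell, against 3 by library totals alone, where Crat and Crot had no call. Slc25a20, the carrier that exchanges acylcarnitine for carnitine across the inner membrane, was at 69.5, 67.7, 84.4 and 102 CPM with CCl4, against 206, 203 and 235 CPM with MO (log2 fold change -1.41, SE 0.141, edgeR adjusted p 3.59e-07). Cpt1a, the rate-limiting carnitine palmitoyltransferase of the outer membrane, was at 219, 218, 404 and 386 CPM with CCl4, against 850, 723 and 661 CPM with MO (-1.28, SE 0.207). The CCl4 livers fell into 2 low and 2 higher libraries for Cpt1a, all below every MO liver. Cpt2 (-1.26), Crat (-0.79) and Crot (-0.60) completed the group. Crat and Crot transfer short and medium acyl groups to carnitine.

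Of the 8 enzymes of the mitochondrial cycle 7 fell, with a median log2 fold change of -0.63. By library totals alone, which moved the median of all genes to 0.45, only Hadh and Acads of the 8 fell, with a median of -0.18. Acads, the short-chain acyl-CoA dehydrogenase, was at 116, 106, 121 and 119 CPM with CCl4, against 194, 202 and 238 CPM with MO (-0.87, SE 0.111, edgeR adjusted p 4.83e-06). The trifunctional protein subunits Hadha and Hadhb, whose genes are neighbours on chromosome 5 of GRCm38.p6 (bases 30119423 to 30154980 and 30155253 to 30184593), changed by -0.49 and -0.66. Acadl, the long-chain dehydrogenase, changed by -0.19 (SE 0.133, edgeR adjusted p 0.246) and its groups overlapped. The auxiliary enzymes that handle unsaturated chains fell further, all 4 of them, with a median of -1.58. Decr2, the peroxisomal dienoyl-CoA reductase, was at 94.8, 69.9, 130 and 115 CPM with CCl4, against 375, 330 and 365 CPM with MO (-1.80, SE 0.168, edgeR adjusted p 1.75e-07). Eci2, Eci1 and Decr1 changed by -1.65, -1.51 and -1.24.

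All 4 members grouped under peroxisomal beta-oxidation, a group that leaves out Decr2, fell, with a median of -1.73. Acaa1b, a 3-ketoacyl-CoA thiolase, was at 165, 127, 206 and 267 CPM with CCl4, against 694, 642 and 879 CPM with MO (-1.95, SE 0.277, edgeR adjusted p 1.46e-05). Acaa1a changed by -1.80, Pex11a, a factor in peroxisome division, by -1.66, and the bifunctional enzyme Ehhadh by -1.06. All 3 genes of electron transfer fell as well. Etfdh, which passes the electrons to ubiquinone, was at 133, 124, 141 and 181 CPM with CCl4, against 314, 331 and 310 CPM with MO (-1.14, SE 0.141, edgeR adjusted p 3.47e-06). The flavoprotein subunits Etfa and Etfb changed by -0.995 and -1.09.

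Slc27a2, a transporter and acyl-CoA synthetase for very long chains, was at 644, 536, 776 and 1203 CPM with CCl4, against 2732, 2866 and 2984 CPM with MO (-1.86, SE 0.203, edgeR adjusted p 9.16e-07). Fabp1, the liver fatty acid binding protein whose upstream sequence is printed above, was at 1528, 1113, 1682 and 1638 CPM with CCl4, against 2744, 2946 and 4536 CPM with MO (-1.19, SE 0.258). Both genes were separated between the groups. Plin2, which coats lipid droplets, changed by -0.20 (SE 0.236, edgeR adjusted p 0.513). With CCl4 it was at 701 CPM in 1 liver and 292 to 340 CPM in the others, against 447 to 542 CPM with MO.

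The largest fall of the set was that of Acot1, a cytosolic acyl-CoA thioesterase, which was at 2.44, 4.63, 9.19 and 6.39 CPM in WT livers with CCl4, against 71.5, 64.5 and 87.5 CPM with MO (-3.72, SE 0.502, edgeR adjusted p 1.5e-05). Its mitochondrial relative Acot2 changed by 0.76 (SE 0.39, edgeR adjusted p 0.119, and 0.0165 as a rise by library totals alone). The 2 genes are neighbours on chromosome 12 and 23.7% of the 50-base words of the Acot1 transcript also occur in Acot2, so that reads could be split between them. Vnn1, a pantetheinase, was at 9.52, 8.81, 6.00 and 21.5 CPM with CCl4, against 42.2, 34.7 and 52.9 CPM with MO (-1.92, SE 0.489, edgeR adjusted p 0.00384). Angptl4, a secreted inhibitor of lipoprotein lipase, was at 81.8, 111, 158 and 208 CPM with CCl4, against 387, 463 and 510 CPM with MO (-1.70, SE 0.398). Pdk4, the kinase that turns off pyruvate dehydrogenase, changed by -0.15 (SE 0.369), and the hormone Fgf21 by 1.11 (SE 0.666), at no more than 8.4 CPM in any WT liver. Bdh1, which interconverts the ketone bodies, was at 305, 318, 262 and 269 CPM with CCl4, against 172, 150 and 197 CPM with MO (0.74, SE 0.162, edgeR adjusted p 0.00103), the only member that rose.

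Marker lists moved with these changes, and their part in them was not tested. Summed hepatocyte markers (10 genes tested) came to 112700 to 160200 CPM in WT livers with CCl4, against 163800 to 190300 CPM with MO, and 6 of the 10 fell, with a median log2 fold change of -0.64. Over the same livers the 35 members summed to 6926 to 9212 CPM, against 16300 to 19320 CPM with MO. Of 10 markers of pericentral hepatocytes, 8 fell with a median of -4.54, and their sum was 726 to 2147 CPM with CCl4, against 14290 to 18270 CPM with MO. Among the periportal markers, Cps1 and Hsd17b13 overlapped between the groups, and all others were separated downward with CCl4. Pck1, for example, was at 2409, 2096, 4346 and 3654 CPM with CCl4, against 6274, 6189 and 6403 CPM with MO. All 12 stellate and myofibroblast markers rose, to a sum of 447 to 960 CPM with CCl4, against 86.4 to 162 CPM with MO. Of the adipocyte markers, Adipoq was at 0 in all WT livers with CCl4 and in all but 1 WT liver with MO.

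Other genes of the pathway, from lists drawn up for the same processes, fell in the same WT livers more often than they rose. Of all genes tested 23.5% were called lower and 22.8% higher. The counts below are from the fit with TMM factors, and the lists were chosen with earlier results of these data known. Of 23 other peroxisomal genes 18 fell and 1 rose, and Phyh (-1.55) and Hacl1 (-1.46), both of alpha-oxidation, fell the most while Abcd2, a transporter of very long chains, rose by 3.94. Of 18 other mitochondrial acyl-CoA genes 14 fell and 1 rose, with Hsd17b10 (-1.54) and Ivd (-1.38) at the lower end and the thioesterase Acot9 (1.89) at the upper. Of 10 omega-oxidation genes 8 fell and none rose, led by Cyp4a12b (-2.99) and Cyp4a12a (-2.75), near-identical copies between which reads may be split. Of 16 genes of uptake and activation 9 fell and 4 rose. There the carnitine transporter Slc22a5 (-2.25) and the synthetase Acsl1 (-2.05) fell, and Acsl3 (1.45) and Fabp4 (1.39) rose. Of 8 ketone body genes 4 fell and 1 rose, and Oxct1 (0.65), which starts ketone use, was the gene that rose. Of 12 droplet and lipolysis genes 8 fell and 2 rose. Of these G0s2 (-2.88), an inhibitor of the lipase ATGL, and Mgll (-2.05) fell, and Pnpla3 (3.91) and Plin3 (0.75) rose. Of 20 regulators and coactivators 12 fell and 1 rose, and Lpin1 (-1.85) and Acacb (-1.59) fell the most.

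Both deletion backgrounds were then set beside the WT livers. In deletion livers with Δ[O] HMGB1, 11 members fell with CCl4 and none rose (24.2% of all genes were called, 12.9% higher and 11.4% lower), with a median of -0.33. In deletion livers with WT HMGB1, 25 members fell and 1 rose (47.3% of all genes called, 23.3% higher and 24% lower), with a median of -0.66. Scaling by library totals alone, without TMM, moved the median of all genes to 0.14, 0.27 and 0.45 in the Δ[O], WT HMGB1 and WT backgrounds, and then 1 member rose and 6 fell, 3 rose and 15 fell, and 2 rose and 22 fell. The count in the Δ[O] background was 5 without MO replicate 2 and 7 without CCl4 replicate 2 or 3. The difference between the Δ[O] and WT backgrounds was not tested. CPM ranges were separated downward for 13 members with Δ[O] HMGB1 (17.1% of all genes) and for 27 members with WT HMGB1 (23.9% of all genes). Of the 11 members that fell with Δ[O] HMGB1 all 11 were among the 29 that fell in WT livers, and 23 of the 25 that fell with WT HMGB1 were, the others being Pdk4 and Plin2. The 9 that fell in all 3 backgrounds were Acaa1a, Crot, Decr1, Decr2, Eci1, Eci2, Etfa, Pex11a and Slc27a2. In the Δ[O] background Acaa1a, Crot, Eci2 and Pex11a kept the call whichever library was left out. Eci1 kept it in 6 of 7 such fits, Decr1 in 5, Slc27a2 in 3, Decr2 in 2 and Etfa in 0, and Etfa also lost it under all 6 other settings.

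**Figure D2:**
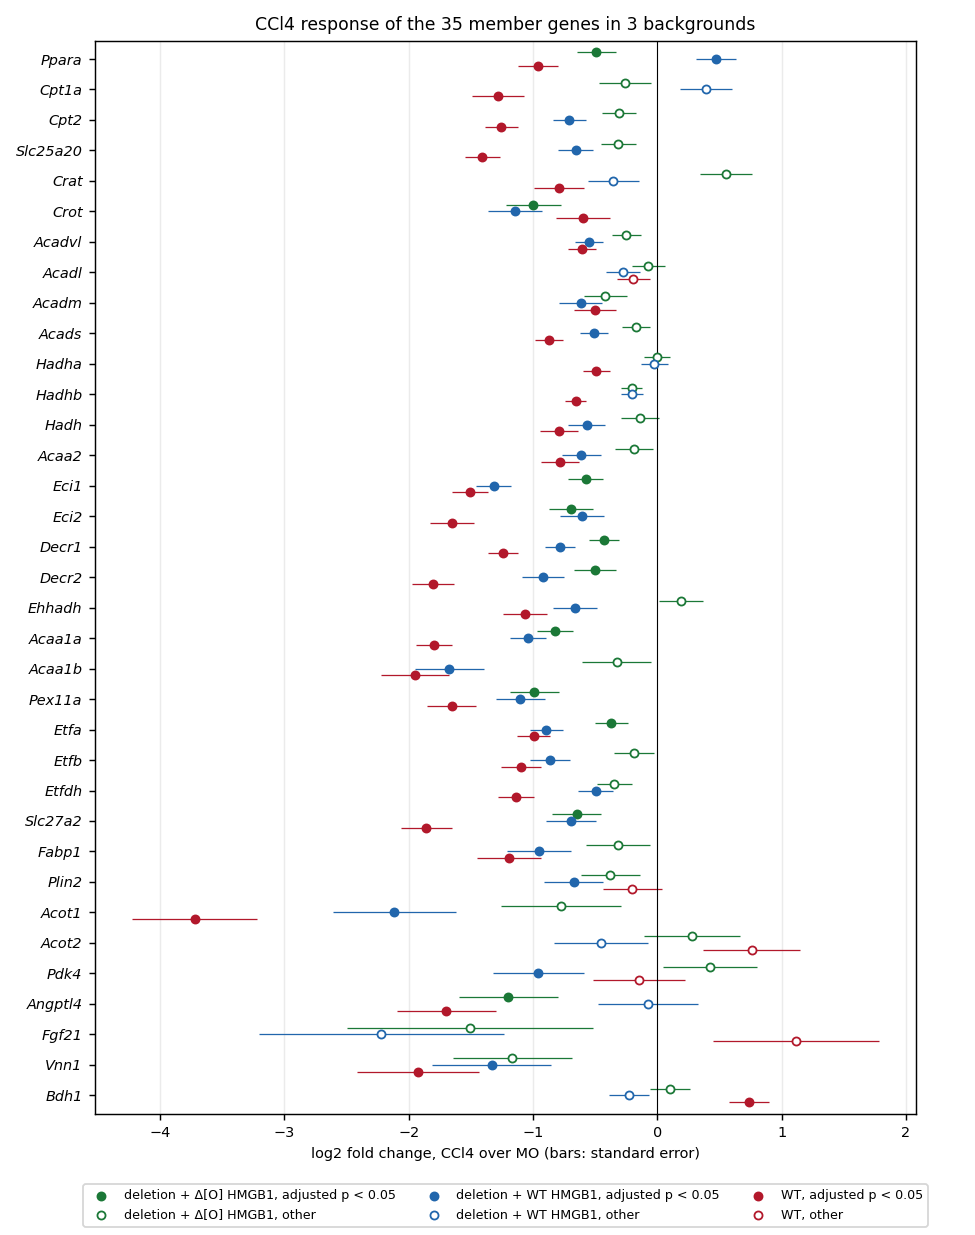
Log2 fold change of each of the 35 members with CCl4 over MO (x axis) in deletion livers with Δ[O] HMGB1, deletion livers with WT HMGB1 and WT livers, with bars of 1 standard error and filled dots at an adjusted p under 0.05. Most WT dots lie left of the other 2, and Ppara is at -0.49, 0.47 and -0.96 in the 3 backgrounds.

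Ppara itself did not follow 1 direction. It was at 208, 181, 241 and 218 CPM with CCl4 and Δ[O] HMGB1, against 307, 310 and 278 CPM with MO (-0.49, SE 0.158, edgeR adjusted p 0.0286). It was at 275, 215, 257 and 254 CPM with CCl4 and WT HMGB1, against 179, 158 and 204 CPM with MO (0.47, SE 0.161, edgeR adjusted p 0.0205). The groups were separated downward with Δ[O] HMGB1 and upward with WT HMGB1. Leaving out a library took the adjusted p to as much as 0.114 with Δ[O] HMGB1 and 0.108 with WT HMGB1, a replicate block took the WT HMGB1 value to 0.0772, and library totals took the Δ[O] value to 0.157. Of the hepatocyte markers 0 of 10 fell with Δ[O] HMGB1 (1 had an unadjusted p under 0.05), and 4 fell and 1 rose with WT HMGB1. Pericentral markers fell in both (9 of 10 each), and stellate markers rose in 10 of 12 with Δ[O] HMGB1 and in 12 of 12 with WT HMGB1. The part of these lists in the members' changes was not tested.

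Whether the CCl4 response differed between deletion livers with WT HMGB1 and WT livers was tested as the difference of the 2 log2 fold changes. It differed for 11 members (13.5% of all genes, 6.85% higher and 6.64% lower), 10 of them with a higher value, that is a smaller fall or a rise, in the deletion livers. By library totals alone there were 9, of which 7 were higher. The largest differences among the calls were those of Cpt1a (1.67, SE 0.297, edgeR adjusted p 0.00123) and Ppara (1.43, SE 0.226, edgeR adjusted p 0.000547). Slc27a2 (1.17), Eci2 (1.05), Decr2 (0.88), Acaa1a (0.75), Slc25a20 (0.75), Etfdh (0.64), Hadha (0.47) and Hadhb (0.45) followed, and Bdh1 differed by -0.96. Of the 11 calls 7 held whichever library was left out. Hadha (adjusted p 0.047) held in 2 of 14 such fits and Etfdh (0.0389) in 3 of 14, and both lost the call without the filter and by library totals alone, where Hadhb lost it too. The call of Hadha was also lost with RLE scaling and in a fit of the compared groups alone. Of the 50-base words of the Hadhb transcript 62.4% occur in other genes, mainly Gm13910, so its counts are uncertain, as are those of Etfb, which shares 67.3% with Gm45233, and of the pair Acaa1a and Acaa1b, which share 34% and 35.5%.

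Of these 11 members, 10 were called between deletion livers with WT HMGB1 and WT livers under MO, and 1, Etfdh, under CCl4. By library totals alone 6 were called under MO and 3 (Acaa1a, Decr2 and Etfdh) under CCl4. Under MO the call of Decr2 was lost in all 6 fits that left out a library and that of Acaa1a in 4 of 6. Under MO, 16 members were lower and 2 higher in the deletion livers with WT HMGB1 (24.2% of all genes were called, 11.5% lower and 12.7% higher). By library totals alone 9 were lower and 3 higher, with the median of all genes at 0.28. Ppara with MO was at 179, 158 and 204 CPM in the deletion livers with WT HMGB1, against 538, 471 and 362 CPM in WT livers (-1.34, SE 0.173). Angptl4 was at 49.0, 39.6 and 47.5 CPM, against 387, 463 and 510 CPM in WT livers (-3.32, SE 0.466, edgeR adjusted p 6.12e-05), the largest difference of the set there. Acot1 was at 12.6, 21.5 and 11.7 CPM, against 71.5, 64.5 and 87.5 CPM in WT livers (-2.29, SE 0.526), and Pex11a at 73.9, 71.0 and 49.3 CPM, against 210, 205 and 225 CPM (-1.72, SE 0.218). None of these 4 genes overlapped between the groups. Crot (0.92) and Bdh1 (0.79) were the members that were higher in the deletion livers, and without deletion MO replicate 3, at 1294 CPM, Crot lost the call (0.57, adjusted p 0.0642). Markers differed in the same comparison. Pericentral markers summed to 7935 to 9852 CPM in the deletion livers, against 14290 to 18270 CPM in WT livers (4 of 10 lower, 1 higher), and periportal markers to 8957 to 10560 CPM, against 19760 to 22060 CPM (4 of 10 lower). Hepatocyte markers summed to 122100 to 166900 CPM, against 163800 to 190300 CPM (1 of 10 lower), and their part was not tested. Genotype, supplied HMGB1 and any difference in procedure cannot be told apart in this comparison.

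Under CCl4 the same deletion livers and the WT livers differed in 7 members (28.8% of all genes were called, 15.8% higher and 13% lower). Acaa1b (0.76), Vnn1 (1.28) and Etfdh (0.37) were higher and Acadvl (-0.38), Angptl4 (-1.69), Fgf21 (-5.26) and Pex11a (-1.17) lower in the deletion livers. By library totals alone 6 were higher and 4 lower, with a replicate block 2 were higher and 6 lower, and without replicate 1 of the deletion livers there were 4, all lower. Fgf21 was at 0.0304, 0.0729, 0.147 and 0.0625 CPM in the deletion livers, against 1.28, 2.36, 0.754 and 8.40 CPM in WT livers. The values of the deletion livers stand for 1, 3, 5 and 2 reads, so the size of that difference is poorly known, and the groups did not overlap. Angptl4 was at 15.6, 53.0, 59.9 and 44.1 CPM in the deletion livers, against 81.8, 111, 158 and 208 CPM in WT livers. The 4 lower calls held whichever library was left out, while Acaa1b held in 5 of 8 such fits, Etfdh in 2 and Vnn1 in 1. The replicate block ended the call of Acaa1b. Cycling cell markers summed to 302 to 483 CPM in the deletion livers, against 37.4 to 119 CPM in WT livers (7 of 8 higher), and stellate markers to 1575 to 2279 CPM, against 447 to 960 CPM (5 of 12 higher). Macrophage markers summed to 737 to 906 CPM, against 509 to 728 CPM (6 of 12 higher, 2 lower), and the part of these lists was not tested.

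The 2 HMGB1 constructs were then compared within the deletion background. Under CCl4, livers with Δ[O] HMGB1 had higher levels than livers with WT HMGB1 for 2 members and lower levels for none, where 2.31% of all genes were called, 0.113% higher and 2.19% lower. Ehhadh was at 508, 363, 426 and 421 CPM with Δ[O] HMGB1, against 345, 273, 213 and 212 CPM with WT HMGB1 (0.72, SE 0.165, edgeR adjusted p 0.0235). Acaa1b was at 731, 564, 583 and 722 CPM with Δ[O] HMGB1, against 400, 308, 299 and 286 CPM with WT HMGB1 (1.01, SE 0.257, edgeR adjusted p 0.0421). Both were separated, and 14 of the 35 members were separated upward and none downward, where 3.87% of all genes were separated upward. The members' log2 fold changes were positive for 32 of 35, with a median of 0.30, and the share of positive values over all genes is not given here. By library totals alone Ehhadh changed by 0.625 and Acaa1b by 0.908, both less than with TMM factors. The calls were few and not firm. DESeq2 made 7 and scaling by library totals 1. A replicate block made 3, but Acaa1b was not among them (adjusted p 0.0579), and with a block of the compared groups alone Ehhadh lost its call (0.0722). No member was called without replicate 3, 4 or 5 of the livers with WT HMGB1 or without replicate 1 or 3 of those with Δ[O] HMGB1, while 5 were called without replicate 2 and 1 without replicate 5 of those with Δ[O] HMGB1. Summed stellate markers lay lower in the livers with Δ[O] HMGB1 in the same comparison, at 595 to 1433 CPM, against 1575 to 2279 CPM with WT HMGB1, and macrophage markers, of which 4 of 12 fell, at 280 to 541 CPM, against 737 to 906 CPM. No stellate marker was called (7 of 12 at an unadjusted p under 0.05). Their part in the members' levels was not tested.

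Under MO no member was called between the constructs (0% of all genes by edgeR, 4 members at an unadjusted p under 0.05, and 1, Ppara, by DESeq2). Ppara with MO was at 307, 310 and 278 CPM with Δ[O] HMGB1, against 179, 158 and 204 CPM with WT HMGB1, without overlap. Of the members, 7 were separated upward and 1, Pdk4, downward, against 5.67% and 6.49% of all genes. The difference of the CCl4 responses between the constructs was called for no member (0% of all genes by edgeR, 11 members at an unadjusted p under 0.05, 1 by DESeq2). Ppara differed by -0.97 (SE 0.225, edgeR adjusted p 0.173), Acaa1b by 1.34 (SE 0.391, 0.208) and Pdk4 by 1.38 (SE 0.529, 0.253). Replicate 3 of the MO livers with WT HMGB1 stood apart for several members, with Crot at 1294 CPM against 678 and 751 CPM in the other 2 and Acaa1b at 588 CPM against 1262 and 1241 CPM. Without it 6 members were called for the difference of responses and 2 between the constructs under MO.

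In the second liver table the resolution livers were compared with the fibrosis livers, both with BSA. Of the 35 members 3 were higher and 1 lower (9% of all genes called, 2.4% higher and 6.6% lower), with a median log2 fold change of 0.40. Crot was at 767, 707 and 686 CPM in resolution, against 298, 503 and 287 CPM in fibrosis (0.99, SE 0.276, edgeR adjusted p 0.0398). Cpt2 was at 261, 280 and 212 CPM, against 172, 92.3 and 159 CPM in fibrosis (0.83, SE 0.233, edgeR adjusted p 0.0402). Etfdh was at 390, 385 and 398 CPM, against 203, 291 and 183 CPM in fibrosis (0.79, SE 0.234, edgeR adjusted p 0.0468). All 3 were separated between the stages. Acot2 was at 6.37, 4.73 and 3.64 CPM, against 11.4, 39.7 and 8.71 CPM in fibrosis (-2.002, SE 0.482, edgeR adjusted p 0.0249). Without fibrosis replicate 2 the difference of Acot2 was -1.02 and was not called (edgeR adjusted p 0.104).

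In all 19 members were separated upward and 1 downward, against 18% and 16.7% of all genes. Fabp1 (0.84, edgeR adjusted p 0.0507), Acaa1b (1.40, 0.0792) and Eci1 (0.70, 0.0656) were separated upward without a call. The calls rest on few libraries: leaving out any 1 of the resolution livers left none, leaving out fibrosis replicate 2 left 2, a fit of these 2 groups alone made none, DESeq2 made 10, and library totals made 2 higher and 2 lower. Of the pericentral markers 2 of 10 rose with a median of 1.08, and 6 of 12 stellate markers, 5 of 12 macrophage markers and 6 of 8 cycling cell markers fell, while 0 of 10 hepatocyte markers were called (0 at an unadjusted p under 0.05). Their part was not tested. Stage, and the time of sampling, cannot be told apart from each other here.

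**Figure D3:**
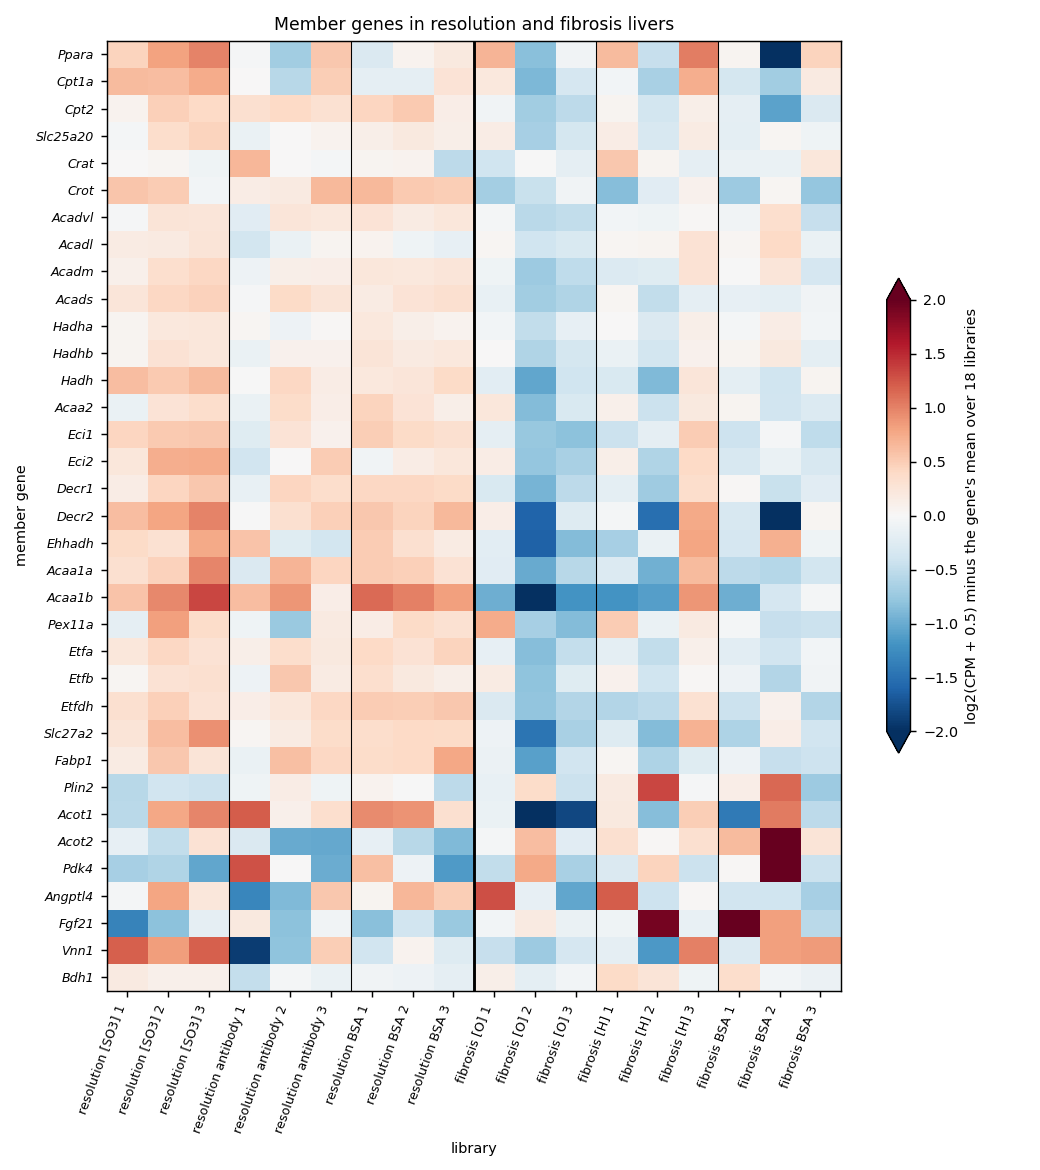
Each member's log2(CPM + 0.5) minus its mean over the 18 libraries (colour) in resolution and fibrosis livers, with 1 column for each library and replicate numbers at the foot. The resolution columns are redder than the fibrosis columns for most members, and the second BSA fibrosis liver stands out in Ppara, Acot2 and Pdk4. Decr2 is low in the second liver of each fibrosis group.

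The second BSA fibrosis liver stood apart from the other 2 livers of its group. It had 22.3 CPM of Ppara, against 264 and 349 CPM in the other 2 BSA fibrosis livers, 241 CPM of Pdk4, against 18.9 and 13.6 CPM, 37.4 CPM of Decr2, against 124 and 159 CPM, and 1051 CPM of Plin2, against 519 and 285 CPM. It was thus low in the receptor and high in Pdk4 and Plin2. These directions were shared by the second livers with [H] and [O] HMGB1. They were the lowest of their groups in Ppara (184.6 and 142.6 CPM) and Decr2 (54.27 and 50.55 CPM). In Pdk4 (25.45 and 31.62 CPM) and Plin2 (1194 and 611.2 CPM) they were the highest. What the second livers had in common was not tested.

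No member was called for an HMGB1 form or the antibody within its stage in the main fit. That fit pools the spread of resolution and fibrosis livers. In fibrosis, [O] HMGB1 against [H] HMGB1 gave 0 calls (3 members at an unadjusted p under 0.05), [O] HMGB1 against BSA gave 0 (4 members) and [H] HMGB1 against BSA gave 0 (2 members). In resolution, [SO3] HMGB1 against BSA gave 0 (1 member) and the antibody against BSA gave 0 (0 members). Ranges were separated for 0 members with [O] against [H] HMGB1 (14.4% of all genes), for 1 member, Vnn1, with [O] HMGB1 against BSA (5.84%) and for 0 with [H] HMGB1 against BSA (7.93%). In each of these 5 comparisons edgeR called 0% of all genes, and DESeq2 called no member either. The medians of the members were -0.34 for [O] against [H] and -0.26 and 0.10 for [O] and [H] against BSA, and they were 0.07 and -0.15 for [SO3] and the antibody against BSA in resolution. These comparisons share their BSA livers within a stage. The spread between livers of a group limits what could be seen. With [O] HMGB1 the second liver was the lowest for 26 of 35 members and with [H] HMGB1 for 23, and Slc27a2, for example, was at 960, 371 and 659 CPM with [O] HMGB1, at 860, 565 and 1670 CPM with [H] HMGB1 and at 671, 1127 and 789 CPM with BSA.

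With [SO3] HMGB1 in resolution 7 members were separated above BSA and 1 below (11.1% of all genes each way), none of them called in the main fit. Vnn1 was at 48.0, 36.9 and 47.6 CPM with [SO3] HMGB1, against 15.7, 21.7 and 17.1 CPM with BSA (1.28, SE 0.541, edgeR adjusted p 0.762). Ppara was at 347, 446 and 510 CPM with [SO3] HMGB1, against 208, 267 and 293 CPM with BSA, and Cpt1a at 758, 751 and 816 CPM, against 431, 432 and 592 CPM. A fit of these 2 groups alone called 1 member, Vnn1 (edgeR adjusted p 0.0247). In that fit Cpt1a had an edgeR adjusted p of 0.0659 and Ppara of 0.0701. With the antibody 6 members were separated below BSA and none above, where 4.39% of all genes were separated below. They were Hadha, Hadhb, Acadm, Slc25a20, Eci1 and Etfdh, and none was called. Cycling cell markers summed to 26.3 to 81.6 CPM with the antibody, against 18.6 to 19.95 CPM with BSA.

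HSC-T6 cells held a different part of the set. The 8 members that did not pass the filter on low counts were Ehhadh, Acaa1a, Acaa1b, Acot1, Fgf21, Slc27a2, Fabp1 and Plin2, with at most 0.496 CPM in any library, and Acaa1b was at 0 in all 12. Defining hepatocyte markers were also near 0 (a sum of 3.59 to 6.80 CPM, with Ttr at 0 in all 12 libraries), and Col1a1, the main scar collagen, was at 27480 to 41850 CPM. The quiescent stellate marker Lrat was at 0 in all 12. For these rat cells too the submitters' processing notes give mm10, a mouse build, so a low count here may also reflect how rat reads were assigned, which was not tested.

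With [H] HMGB1, 1 of the 27 tested members was called (0.799% of all genes), and 2 were separated (24.4%). Cpt1a was at 76.9, 78.6 and 81.4 CPM with [H] HMGB1, against 69.6, 60.6 and 63.1 CPM with BSA (0.29, SE 0.0545, edgeR adjusted p 0.00907). It lost the call without replicate 2 of BSA or replicate 2 or 3 of [H] HMGB1. With [O] HMGB1, 3 members rose and 9 fell, where 43.9% of all genes were called, 23.7% higher and 20.2% lower. Ranges were separated for 12 members and for 50.8% of all genes. Cpt1a rose further, to 90.7, 81.9 and 85.3 CPM (0.42, SE 0.0542, edgeR adjusted p 7.14e-07), and Hadha rose by 0.13. The 9 that fell changed by -0.11 (Crat) to -0.37 (Acadm) on the log2 scale. Of the 12 calls with [O] HMGB1, 6 held whichever library was left out and 7 held under every other setting. Crat held in 1 of 6 fits that left out a library.

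Angptl4 gave the largest difference of the set in the cells. It was at 7.95, 7.38 and 7.59 CPM with [O] HMGB1, against 0.0681, 0 and 0 CPM with BSA. These levels stand for 364 reads with [O] HMGB1 and 1 with BSA, a ratio of 309 with an exact 95% interval of 55.2 to 12300 that covers counting error only. It was at 0, 0 and 0.124 CPM with [H] HMGB1 and at 0.0618, 0.171 and 0.291 CPM with [SO3] HMGB1, so that only the [O] libraries stood out. The ratio of [SO3] to BSA was 7.15 (0.991 to 314) from 9 reads and 1 read, and edgeR called it at an adjusted p of 0.0436. That call was lost in 4 of 6 fits that left out a library (adjusted p up to 0.173), by DESeq2 (0.057) and with a replicate block (0.0561).

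**Figure D4:**
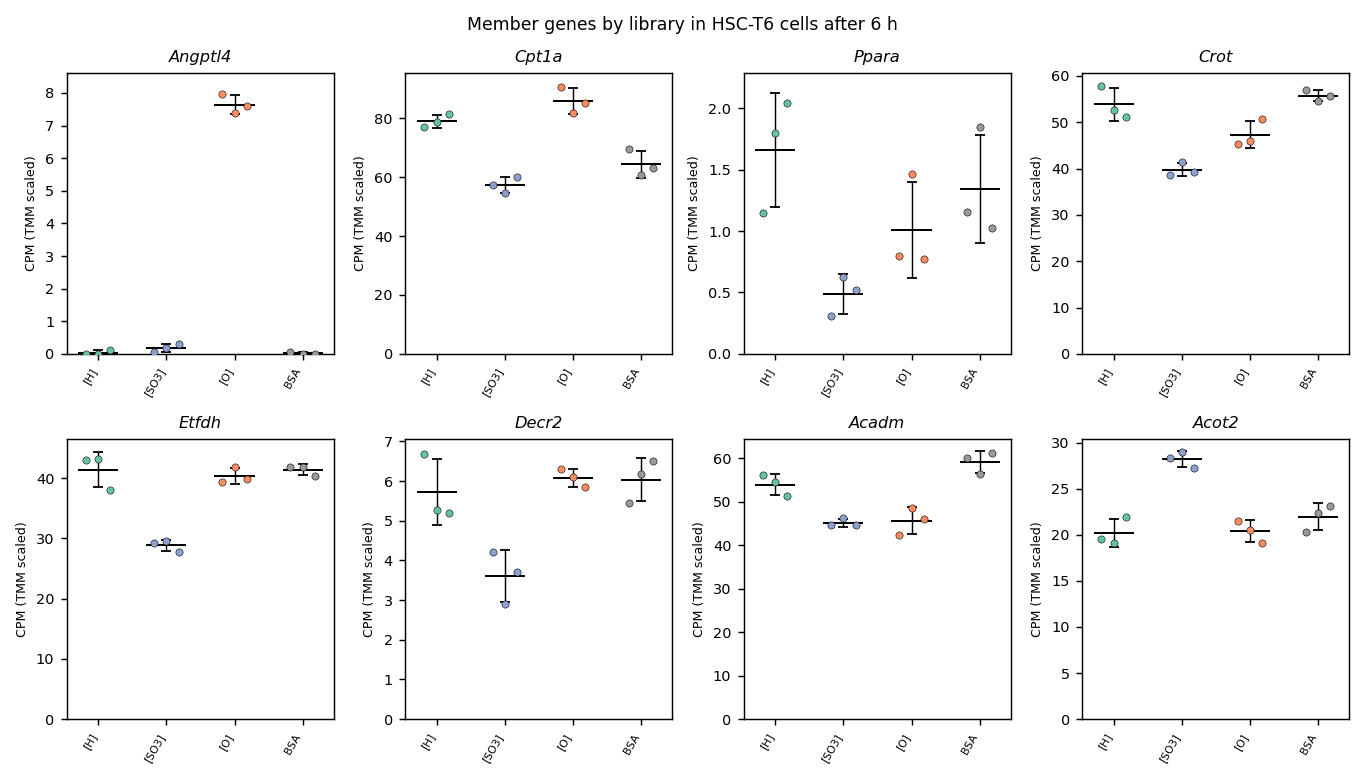
Level (CPM, scaled by TMM factors) of 8 members in each HSC-T6 library after 6 h, with dots for libraries, long bars for group means and error bars for the SD. Angptl4 is high with [O] HMGB1 alone, Cpt1a is above BSA with [H] and [O] HMGB1, and Crot, Etfdh and Decr2 are lowest with [SO3] HMGB1.

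With [SO3] HMGB1, 2 members rose, Acot2 and, by the weak call above, Angptl4, and 16 fell, where 63.3% of all genes were called, 31.1% higher and 32.2% lower. Of the 18 calls 12 held whichever library was left out, and 12 held under every other setting. Slc25a20 lost its call under each of the other settings. Ranges were separated for 19 members and for 64.6% of all genes. Ppara was at 0.309, 0.628 and 0.523 CPM with [SO3] HMGB1, against 1.16, 1.85 and 1.026 CPM with BSA (-1.45, SE 0.373, edgeR adjusted p 0.00155), a gene near the lower limit of detection in these cells. Decr2 was at 4.20, 2.91 and 3.72 CPM, against 5.44, 6.18 and 6.50 CPM with BSA (-0.74, SE 0.148), Etfdh at 29.3, 29.5 and 27.8 CPM, against 41.9, 41.9 and 40.4 CPM (-0.52, SE 0.0608), and Crot at 38.7, 41.4 and 39.2 CPM, against 57.0, 54.7 and 55.6 CPM (-0.49, SE 0.0584). None of these 4 overlapped between the groups. Acot2 rose to 28.4, 28.9 and 27.3 CPM, against 20.4, 22.4 and 23.2 CPM with BSA (0.36, SE 0.0713). All 8 cycling cell markers fell with [SO3] HMGB1, with a median of -0.91, and 7 of the 10 tested stellate markers did, and their part was not tested.

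The [SO3] and [O] forms were also compared directly, and 3 members were higher and 12 lower with [SO3] HMGB1 (59.2% of all genes called), and 16 were separated (62.3%). By library totals alone 6 were higher and 9 lower. Angptl4 (-5.37, SE 0.274), Ppara (-1.026, SE 0.386), Decr2 (-0.76), Cpt1a (-0.58, SE 0.0535) and Pex11a (-0.51) were the furthest below. The members higher with [SO3] HMGB1 were Acot2 (0.47), Bdh1 (0.36) and Vnn1 (0.33). Cpt1a was at 57.3, 54.8 and 60.01 CPM with [SO3] HMGB1, against 90.7, 81.9 and 85.3 CPM with [O] HMGB1, without overlap. Ppara lost this call when a library was left out, with an adjusted p of up to 0.2. Of the 15 calls 12 held whichever library was left out.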

How the data were processed

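Per the labels' protocols, RNA was extracted with illustra RNAspin (liver) or miRNeasy micro kits (cells) and sequenced as TruSeq Stranded mRNA libraries. The authors deposited whole-number read counts per gene in 3 tables of 12, 18 and 21 libraries. The submitters' processing notes name the build mm10 for all samples, and the sources used here give no aligner, counter, annotation or use of strand. All 51 columns were matched to samples by name. Reads assigned to no gene, which stayed out of all fits, amounted to 32.0% to 35.2% of gene counts for the cells and to 5.50% to 8.51% for CCl4 and MO livers.

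Each table was fitted on its own, with all its groups in 1 model, by edgeR 4.0.16 in R 4.3.3 (filterByExpr at min.count 10 and min.total.count 15, TMM factors, robust quasi-likelihood test), and p-values were adjusted over the 10140, 13487 and 14129 genes kept. The fit was run on simulated counts in which few genes were changed, evenly up and down, which cannot test the choice of scaling. No libraries were alike within sampling noise. The members and lists were chosen with earlier results of these data known. The alternatives were DESeq2 1.42.0, RLE scaling, library totals alone, no filter, a fit of the compared groups, a replicate block and leaving out each library. Values per library are given for the members with the largest change of their role group in WT livers with CCl4, for all members called where 6 or fewer were, and of other pathway genes for the 2 called genes with the largest change each way. Others were named after their values were seen. Some genes that this rule names are not reported here. Replicate numbers paired the samples, by correlations of deviations from the group means all above 0.1, in 6 comparisons (0.108 to 0.708), 3 of them between the fibrosis groups and the others Δ[O] against WT HMGB1 under CCl4 and under MO and the deletion with WT HMGB1 against WT under CCl4. 50-base words were counted in the longest coding transcript of each member in GENCODE M21.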

Additional observations from a re-analysis of the deposited data

Results flagged for a closer look

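The CCl4 response (CCl4 over MO) differed between deletion livers with WT HMGB1 and WT livers for 11 members by edgeR's test of the difference itself. The differences in log2 fold change were 1.674 for Cpt1a, 1.434 for Ppara, 1.166 for Slc27a2, 1.046 for Eci2, 0.884 for Decr2, 0.754 for Acaa1a, 0.752 for Slc25a20, 0.641 for Etfdh, 0.466 for Hadha, 0.453 for Hadhb and -0.963 for Bdh1, with adjusted p-values of 0.000547 to 0.047. Of these calls 7 held whichever library was left out, and Hadha and Etfdh held in 2 and 3 of 14 such fits.

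In groups of 4 livers, 1 library stood far from the other 3 in 6 of 105 sets of values, where chance flags about 5%. Plin2 was at 701.1 CPM in the second WT liver with CCl4, against 291.6 to 339.5 CPM in the others. In the third deletion liver with WT HMGB1 and CCl4, Pdk4 was at 12.05 CPM, against 8.78 to 9.238 CPM, and Crot at 561.1 CPM, against 345.2 to 377.0 CPM. In the fifth deletion liver with Δ[O] HMGB1 and CCl4, Pdk4 was at 19.39 CPM, against 6.447 to 8.31 CPM, and Etfdh at 291.6 CPM, against 207.1 to 218.2 CPM. Etfb was at 269.4 CPM in the third of these livers, against 230.0 to 233.5 CPM in the others.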

How the results depend on the processing

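No member's call turned its direction under the alternatives run, but library totals alone moved the split of deletion with WT HMGB1 against WT under CCl4 to 6 higher and 4 lower, against 3 higher and 4 lower. DESeq2 made 10 calls of members for resolution against fibrosis, 7 for Δ[O] against WT HMGB1 under CCl4, 1 for the same under MO and 1 for the difference of their CCl4 responses. A fit of the compared groups alone made 0, 1 and 1 calls for resolution against fibrosis, Δ[O] against WT HMGB1 under CCl4 and [SO3] HMGB1 against BSA in resolution. Without a filter resolution against fibrosis had 2 calls, and with library totals alone the CCl4 response in the Δ[O] background had 7 and Δ[O] against WT HMGB1 under CCl4 had 1. The causes were not tested. Leaving out 1 library gave 0 to 1 calls for [H] HMGB1 in cells, 0 to 4 for resolution against fibrosis, 5 to 10 for CCl4 in the Δ[O] background, 0 to 5 for Δ[O] against WT HMGB1 under CCl4, 0 to 2 under MO, 4 to 8 for deletion with WT HMGB1 against WT under CCl4 and 0 to 6 for the difference of responses between constructs, against 28 to 30 for CCl4 in WT livers. A replicate block with all groups moved no count of calls by over 1.5 times (30, 26 and 12 calls for CCl4 in WT livers, with WT HMGB1 and with Δ[O] HMGB1), and a replicate block with the groups compared alone, added after seeing the data, gave 0, 2 and 5 calls where the numbers pair, for the fibrosis comparisons, Δ[O] against WT HMGB1 and deletion against WT under CCl4. Depth and 3 or 4 livers a group limit what small changes could be seen.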
